A study of Mus musculus with 2 samples.

Results

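The cells described here were 74 myofibroblasts of 15156 cells kept from ovarian tumors grown at a site of peritoneal abrasion in mice, 47 of 8770 cells from mice given control IgG and 27 of 6386 cells from mice given an Activin A neutralizing antibody. They were chosen by raw counts of unique molecular identifiers (UMIs, which count captured RNA molecules). A member had at least 20 UMIs over Col1a1, Col1a2, Col3a1 and Dcn, at least 3 UMIs over Acta2 and Tagln, at most 1 UMI of Ptprc, at most 1 over Msln, Upk3b and Lrrn4, at most 1 over Pecam1 and Cdh5, and under 10 over Dlk1, Hmga2 and Cdkn2a. The levels of these genes therefore chose the cells and are given as a description. Female C57BL/6 mice, 6 to 8 weeks old, carried syngeneic p53-/-, myc, Hras ovarian cancer cells injected into the peritoneal cavity after abrasion, and were injected daily with either agent for 10 days from the day after the cancer cells. Tissue was pooled from 7 mice (control IgG) and from 8 mice (antibody) into 1 library per group, so that each group is a single measurement. Sequencing gave 98174850 UMIs for control IgG and 74117462 for the antibody, and 19 of the kept barcodes occurred in both.

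Myofibroblasts are fibroblasts that have built a contractile apparatus of alpha smooth muscle actin (Acta2), the actin cross-linking protein transgelin (Tagln), tropomyosins, calponins and myosin light chains. They appear in healing wounds and in tumor stroma, where they lay down and pull on collagen-rich matrix. Activin A is a dimer of the inhibin beta A subunit, which Inhba encodes. It binds type II and type I activin receptors and, like TGF beta, signals through SMAD2 and SMAD3, and both ligands are known to favour the myofibroblast state.

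The members were compared with the 298 other collagen-rich stromal cells, which passed every part of the rule other than that on Acta2 and Tagln (118 with control IgG and 180 with the antibody). Levels are given as CPM, the UMIs of a gene per 1000000 UMIs, both summed within a class of cells and a library. A log2 ratio printed with an interval was taken from CPM alone, and counts of genes and medians of lists used CPM plus 5. Intervals are exact 95% intervals of counting error (Poisson for CPM, Clopper-Pearson for shares, conditional binomial for log2 ratios) and say nothing of the spread among mice or libraries. No test between the groups was possible with 1 library each. Cells of a library are not replicates, and any difference in handling or sequencing between the libraries cannot be told apart from the antibody.

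The 5 genes given as markers of the cells were all present. A UMI of Acta2 was seen in 44 of 47 cells with control IgG and in all 27 with the antibody, and a UMI of Tagln in 42 and 18 cells. Of the markers that the rule did not use, Ncam1, a neural cell adhesion molecule also made by activated mesenchyme, was seen in 47 and 25 cells. Cdh2, which encodes N-cadherin, was seen in 35 and 22 cells, and Tnc, the wound glycoprotein tenascin C, in 29 and 14 cells. The fibroblast receptor gene Pdgfra was seen in 40 and 21 cells. Genes of other mural and muscle cells were present in part. The pericyte genes Rgs5 and Higd1b, the smooth muscle regulator Myocd, the satellite cell genes Pax7 and Myod1 and the Schwann cell gene Sox10 had 0 UMIs in both libraries, and Myh11, the smooth muscle myosin, had 11 UMIs in 4 cells and 2 UMIs in 2 cells. Other genes of the same lists were well above 0. Des, the gene of the intermediate filament desmin, had 153 UMIs in 28 cells and 30 UMIs in 9 cells, and the calponin gene Cnn1 had 55 UMIs in 14 cells with control IgG. The 12 smooth muscle genes summed to 234 and 62.8 CPM in the myofibroblasts and 37.2 and 32.7 CPM in the other stromal cells, with 3 of the 12 at 0. The 12 pericyte genes summed to 858 and 533 CPM against 354 and 411 CPM, with 4 of the 12 at 0, and most of the sum was Ndufa4l2, at 784 and 474 CPM. In 1 alternative, the 4 members with 3 or more UMIs over Rgs5, Kcnj8, Abcc9, Higd1b and Myh11 were left out, which left 44 and 26 cells. The log2 ratios described below were then -2.03 for Acta2 and -1.63 for Inhba, against -2.00 and -1.58 with all members. No member was left out for its Des or Cnn1, so this alternative does not cover them. Some genes of the mesothelium were present even though Msln, Upk3b and Lrrn4 had been held low. Of 9 mesothelial genes compared, 5 were at least 2-fold higher in the myofibroblasts than in the other stromal cells, and 2, C3 and Aldh1a1, were at least 2-fold lower, where 6.19% and 5.88% of all genes compared were higher and lower. The whole list summed to 4060 and 3080 CPM against 9743 and 7326 CPM in the other cells, most of it C3. The mesothelial transcription factor gene Wt1 was seen in 41 and 21 cells, the retinoic acid enzyme gene Aldh1a2 in 36 and 17, and the keratin gene Krt8 in 18 and 9. Krt7 was seen in 0 and 2 cells. Genes of cancer-like cells, which had 10 or more UMIs over Dlk1, Hmga2 and Cdkn2a, were also present. Of 5 compared, 3 were at least 2-fold higher than in the other stromal cells and 1 lower, against 6.19% and 5.88%. With the antibody, 1 of the 5 was 2-fold higher (1.65% of all genes). Hmga2, which the rule held low, was seen in 20 and 13 members, at 39.2 and 48.7 CPM. It was at 4.65 and 9.19 CPM in the other stromal cells, 432 and 479 CPM in cancer-like cells and 10.3 and 16.8 CPM in T cells. Lgals7 was at 47.4 and 78.1 CPM in the members and at 77.7 and 111 CPM in T cells. Krt18, Cdkn2a and Dlk1 were also higher in T cells than in the members. The part of free RNA in these values was not tested.

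The limit of 3 UMIs was an edge in a continuous distribution. With control IgG, 108 of 165 collagen-rich stromal cells had no UMI of Acta2 or Tagln and 10 cells lay just outside the limit with 1 or 2 UMIs. Inside it, 7 cells had 3 to 5 UMIs, 13 had 6 to 19, 13 had 20 to 99 and 14 had 100 or more. With the antibody, 167 of 207 cells had none, 13 had 1 or 2, 4 had 3 to 5, 13 had 6 to 19, 10 had 20 to 99 and 0 had 100 or more. The upper bin thus held 29.8% of the members with control IgG and 0% with the antibody. The cells just outside the limit had 41.3 CPM of Acta2 with control IgG and 58.6 CPM with the antibody, against 91.9 and 105 CPM in the cells with 3 to 5 UMIs. A rule in raw UMIs favours deeply sequenced cells. The members had a median of 23616 UMIs with control IgG (9507 to 62356) and 23513 with the antibody (10258 to 77326), and the other stromal cells 9155 and 7474 UMIs, so depth moved with membership and was alike in both groups of members.

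Myofibroblasts made up 0.536% of all kept cells with control IgG (0.394% to 0.712%) and 0.423% with the antibody (0.279% to 0.615%). The log2 ratio of antibody over control IgG was -0.34, with an interval of -1.08 to 0.37 that includes 0. The interval lay below 0 in 2 alternatives, with a limit of 10 UMIs for Acta2 and Tagln (-1.13, -2.16 to -0.19) and with cells reduced to 3000 UMIs (-0.63, -1.26 to -0.03), and the ratio was 0.03 (-0.71 to 0.74) in cells of at least 9000 UMIs. Among the collagen-rich stromal cells, their share was 28.5% (21.7% to 36.0%) and 13.0% (8.77% to 18.4%), a log2 ratio of -1.13 (-1.87 to -0.41). The denominator moved the other way, since collagen-rich stromal cells were a larger share of all cells with the antibody (log2 ratio 0.78, 0.48 to 1.09). In cells of at least 9000 UMIs, a limit added after the depths were seen, 47 of 106 collagen-rich stromal cells (44.3%) were members with control IgG, against 27 of 98 (27.6%) in the antibody library, where the log2 ratio of -0.69 had an interval of -1.43 to 0.03. With cells reduced to 3000 UMIs, which left out 1298 and 1402 shallower cells, 79 and 34 collagen-rich stromal cells (31.7% and 12.9%) passed the rule, a log2 ratio of -1.30 (-1.92 to -0.70). Fewer UMIs also loosen the upper limits of the rule, so these include cells that the rule leaves out at full depth.

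Within the members, both genes of the rule were lower with the antibody. Acta2 (ENSMUSG00000035783, chromosome 19, 34240336 to 34255585, GRCm38) was at 1895 CPM with control IgG, from 2320 UMIs, and at 475 CPM with the antibody, from 371 UMIs, a log2 ratio of -2.00 (-2.16 to -1.84). Per cell, Acta2 ranged from 0 to 69.2 UMIs per 10000 with a median of 9.78 with control IgG, and from 0.61 to 20.8 with a median of 3.63 with the antibody. The ranges overlapped, and the antibody library lacked the cells above 20.8. Tagln (chromosome 9, 45929628 to 45936058) was at 1657 CPM and 238 CPM, a log2 ratio of -2.80 (-3.02 to -2.58). Its median per cell was 6.74 and 1.14 UMIs per 10000, and its highest cell had 58.3 and 9.76.

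The 3 markers outside the rule went in different directions. Tnc was at 687 CPM with control IgG and 122 CPM with the antibody (log2 ratio -2.50, -2.82 to -2.19), and its UMIs were concentrated, with 44.6% and 73.7% of them in 3 cells of the respective library. It was also lower with the antibody in the other stromal cells, at 199 and 21.8 CPM (-3.19, -3.72 to -2.70). There 72.8% and 68.4% of its UMIs lay in 3 cells of the respective library. Ncam1 was at 1154 and 807 CPM (-0.52, -0.65 to -0.38), with a median of 11.3 and 7.72 UMIs per 10000 per cell. Cdh2 was higher with the antibody, at 136 and 213 CPM (0.64, 0.32 to 0.96), and was so in the other stromal cells too, at 23.3 and 59.1 CPM (1.35, 0.75 to 1.98).

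**Figure D1:**
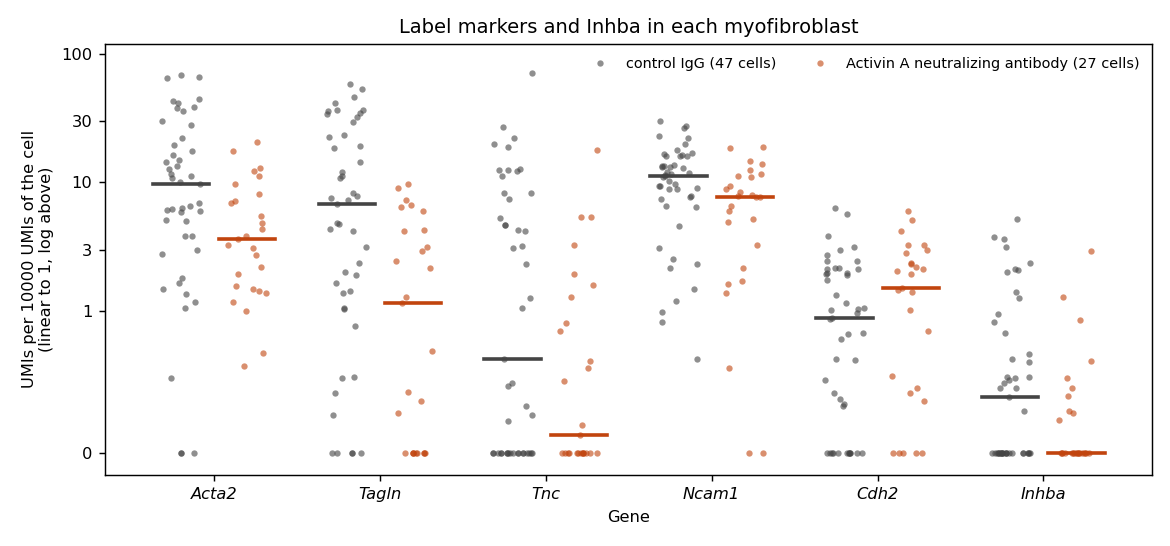
Each point is 1 myofibroblast, with the UMIs of a gene per 10000 UMIs of the cell on the vertical axis (linear to 1, logarithmic above) for 47 control IgG cells and 27 antibody cells. Horizontal bars are medians, and the median of Acta2 is 9.78 with control IgG and 3.63 with the antibody.

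Acta2 and Tagln had low levels in the other stromal cells by construction (6.21 and 8.04 CPM of Acta2). In 68 mesothelial-like cells, with 3 or more UMIs over Msln, Upk3b and Lrrn4, the rule had not used either gene. Acta2 was at 358 CPM there with control IgG and 50.1 CPM with the antibody, a log2 ratio of -2.84 (-3.30 to -2.40). Tagln was at 227 CPM from 245 UMIs and at 4.26 CPM from 4 UMIs (-5.73, -7.62 to -4.36). In cancer-like cells, with 10 or more UMIs over Dlk1, Hmga2 and Cdkn2a, Acta2 was at 29.9 and 11.6 CPM (-1.37, -1.60 to -1.13). Barcodes with under 100 UMIs, which carry free RNA, held Acta2 at 23.9 and 13.2 CPM. T cells, which should lack the gene, had 1.10 and 0.126 CPM. Lower Acta2 with the antibody was therefore measured in each of these classes except the other stromal cells, whose log2 ratio was 0.37 (-0.98 to 1.83) from 8 and 14 UMIs.

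**Figure D2:**
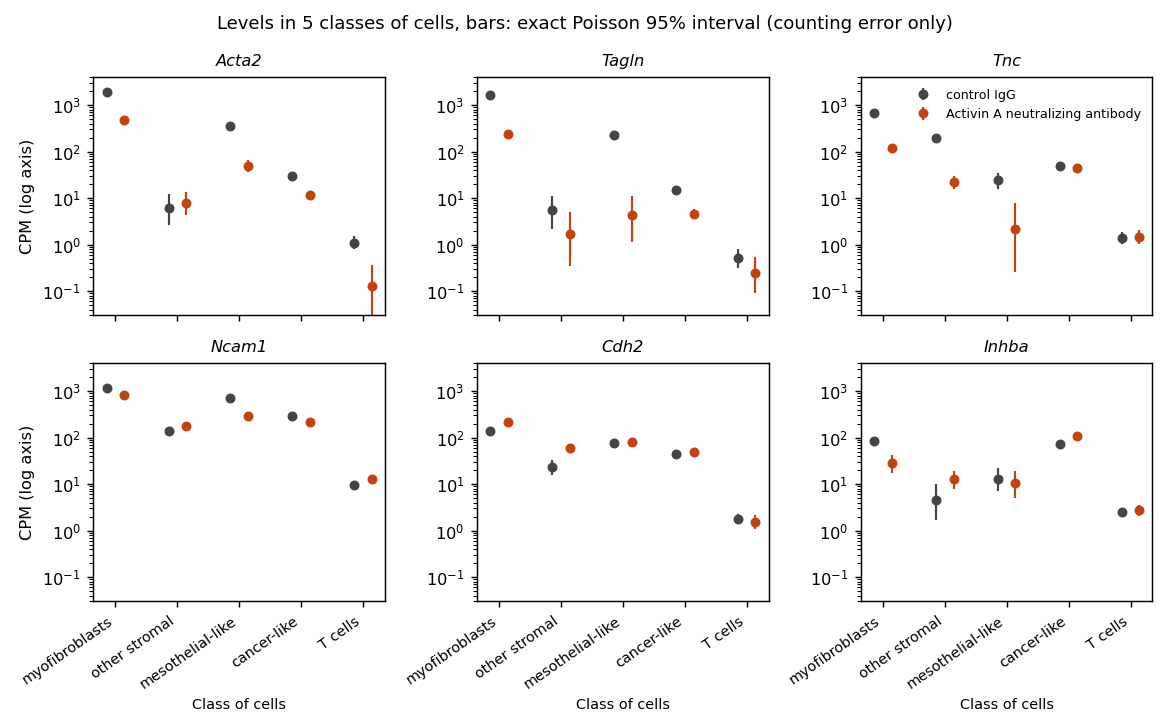
CPM on a log axis of 6 genes in 5 classes of cells, with control IgG in grey and the antibody in orange. Bars are exact Poisson intervals of counting error, and the myofibroblasts have the highest Acta2, at 1895 and 475 CPM.

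Inhba (ENSMUSG00000041324, chromosome 13, 16004256 to 16031609), the gene of the Activin A subunit, was detected in the myofibroblasts and lower with the antibody. It was at 84.1 CPM with control IgG (103 UMIs in 25 of 47 cells) and at 28.2 CPM with the antibody (22 UMIs in 10 of 27 cells), for a log2 ratio of -1.58 (-2.31 to -0.90). Per cell, the median was 0.40 and 0 UMIs per 10000 and the highest cell had 5.24 and 2.92. After cells of at least 5000 UMIs were reduced to that number, an Inhba UMI was expected in 24.7% and 11.6% of the myofibroblasts, and in 0.402% and 0.447% of the T cells of that depth (2687 of 5148 and 1635 of 4003). In free RNA Inhba was at 12.6 and 35.1 CPM, higher with the antibody and there above the 28.2 CPM of the antibody myofibroblasts. With 5% free RNA subtracted, the log2 ratio in the myofibroblasts was -1.66 (-2.42 to -0.97). Cancer-like cells had Inhba at 72.9 CPM from 1181 UMIs and 108 CPM from 2005 UMIs, a log2 ratio of 0.56 (0.46 to 0.67). In the other stromal cells it was at 4.65 CPM from 6 UMIs and 12.6 CPM from 22 UMIs (log2 ratio 1.44, 0.09 to 3.03), and 77.3% of the 22 UMIs lay in 3 cells. The 13 antibody cells just outside the limit had 66.9 CPM and the 167 cells with no UMI of Acta2 or Tagln 3.99 CPM, against 20.7 and 1.83 CPM with control IgG. Inhba was unevenly spread over the members with control IgG. The 14 cells with 100 or more UMIs of Acta2 and Tagln had 159 CPM of Inhba, and those with 20 to 99, 6 to 19 and 3 to 5 had 43.6, 19.2 and 39.4 CPM. In the antibody library the same bins below 100 had 43.6, 12.6 and 28.1 CPM. The values of these bins rest on 22 UMIs in all.

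Among the other ligands, Tgfb1 was at 80.9 and 84.5 CPM, Tgfb2 at 183 and 117 CPM and Tgfb3 at 41.7 and 44.8 CPM with control IgG and the antibody. Inhbb, the gene of the inhibin beta B subunit, had 22 and 5 UMIs, and Inha had 1 and 3 UMIs. Of 5459 genes compared between the groups in the myofibroblasts (at least 50 UMIs over the members and a UMI in at least 10 of them, with 10140 other detected genes below this limit), 90 (1.65%) were at least 2-fold higher with the antibody and 93 (1.7%) at least 2-fold lower, together 3.35%. Of 7424 genes compared in the other stromal cells by the same limits, 0.916% were higher and 1.21% lower, together 2.13%. In the myofibroblasts 2728 of the 5459 genes had a log2 ratio below 0. Of 11 receptors and SMADs that could be compared, 0 passed 2-fold in either direction, and the values ran from -0.37 to 0.45. The TGF beta receptor gene Tgfbr1 was at 114 and 155 CPM, Tgfbr2 at 221 and 169 CPM, and the BMP and activin receptor gene Acvr1 at 99.7 and 78.1 CPM. Acvr1c had 0 UMIs in both. Extracellular antagonists showed 0 of 5 genes past 2-fold, with Fst, which encodes the activin-binding protein follistatin, at 40.8 and 48.7 CPM. Of 15 genes known to rise with TGF beta or activin, 0 were 2-fold higher and 2 were 2-fold lower, the growth factor gene Ccn2 at 691 and 188 CPM (-1.88, -2.14 to -1.62) and the latent TGF beta binding protein gene Ltbp2 at 124 and 51.2 CPM (-1.28, -1.82 to -0.77). Snai1, a transcription factor gene of mesenchymal change, was at 81.7 and 133 CPM (0.71, 0.30 to 1.12).

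The contractile genes lay lower with the antibody as a group. Of 21 compared, 8 were at least 2-fold lower, against 1.7% of all genes, 0 were 2-fold higher, and 21 had a log2 ratio below 0. The median was -0.65. Without Acta2 and Tagln, which the rule used, 6 of 19 were 2-fold lower and the median was -0.48. These 6 include Cnn1, which passed the limits on UMIs and cells through the control IgG library alone. Cnn1 could therefore only count as lower. Myl9 and Des, also among the 6, met both limits in the control IgG library and neither limit in the antibody library on its own. There Myl9 had 18 UMIs in 8 cells and Des had 30 UMIs in 9 cells. Csrp1, Cnn2 and Vcl met both limits in each library. The count of 6 thus rests in part on genes that passed through the library where they were higher. In the other stromal cells the median of the same 19 genes was 0.12, and 4 lay below 0. Myl9, the regulatory light chain of myosin, was at 118 CPM (144 UMIs in 26 cells) with control IgG and 23.1 CPM (18 UMIs in 8 cells) with the antibody, for a log2 ratio of -2.35 (-3.15 to -1.64). Cnn1 had 55 UMIs in 14 cells and 0 UMIs in 27 cells, which is at least 11.7-fold lower when 3 counts over the 27 cells are taken as the limit and the counting error of the 55 UMIs is left aside. With that error, the interval of the log2 ratio ends at -3.20. Des was at 125 and 38.4 CPM (-1.70, -2.32 to -1.13). Csrp1, a LIM protein of the actin skeleton, was at 411 and 177 CPM (-1.22, -1.50 to -0.94), Cnn2 at 212 and 98.6 CPM (-1.11, -1.49 to -0.73) and Vcl, the focal adhesion gene vinculin, at 266 and 128 CPM (-1.06, -1.39 to -0.73). Other genes of the list lay nearer to 0. The light chain gene Myl6 was at 1808 and 1343 CPM (-0.43, -0.54 to -0.32), Tagln2 at 1380 and 1163 CPM (-0.25, -0.37 to -0.13) and the filamin gene Flna at 314 and 287 CPM (-0.13, -0.37 to 0.11). The extent of this difference depended on the limit: among cells with at least 10 UMIs of Acta2 and Tagln the median of the list was -0.33.

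**Figure D3:**
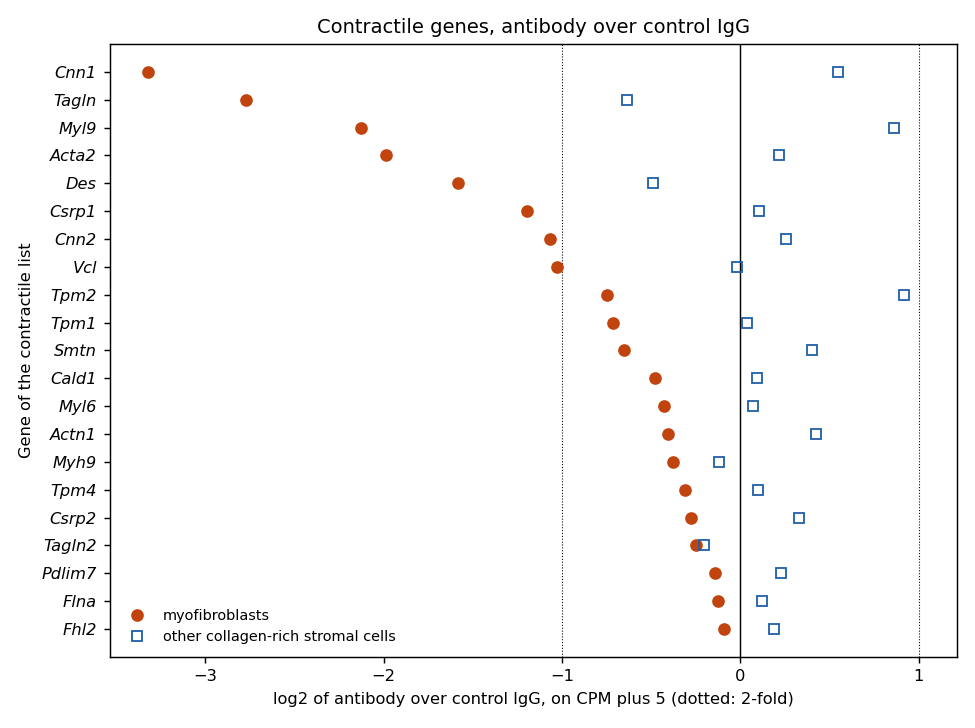
Log2 of antibody over control IgG on CPM plus 5 for 21 contractile genes in the myofibroblasts (filled circles) and in the other collagen-rich stromal cells (open squares). All 21 circles lie below 0, and 8 lie beyond the dotted line of 2-fold, while 5 squares lie below 0 (4 of 19 without Acta2 and Tagln, which the rule kept low in these cells).

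Contractile genes are controlled by serum response factor, which binds a motif known as the CArG box. The 250 bases before the start of each RefSeq gene (GRCm38.p6) were searched for an exact match to it, which reads the same on both strands. It occurred in 1.47% of 32841 promoters, in 1.62% of 27018 genes by any of their promoters, and in 5 of the 21 contractile genes with a promoter in the table (23.8%), of which 19 are among the 21 compared above. The stretches of 30 bases around the matches are shown 5′ to 3′ on the strand of the gene because the contractile list held a larger share of genes with this motif than the table as a whole. The motif is in capitals.
Cnn2 (chr10:79988534-79988563, + strand): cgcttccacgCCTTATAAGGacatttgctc
Myl9 (chr2:156775293-156775322, + strand): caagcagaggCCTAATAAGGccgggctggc
Vcl (chr14:20929161-20929190, + strand): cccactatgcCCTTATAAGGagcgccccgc
Fhl2 (chr1:43163973-43164002, - strand): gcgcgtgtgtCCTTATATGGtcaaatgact
Fhl2 (chr1:43196838-43196867, - strand): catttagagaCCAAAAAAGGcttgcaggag
Myl6 (chr10:128493040-128493069, - strand): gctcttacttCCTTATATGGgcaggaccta
Of these 5 genes, Cnn2, Myl9 and Vcl were among the 8 that were 2-fold lower (7 of them, not Tagln, had a promoter in the table), and Fhl2 (64.5 and 60.2 CPM) and Myl6 were not. The first bases of the matches lay 56, 161 and 227 bases before the start in Cnn2, Myl9 and Vcl. Acta2, Cnn1, Des and Csrp1, which were also 2-fold lower, were searched and had no exact match in this window. The search leaves out variants of the motif and sites outside the window. A match of letters in this window is a description and no measurement of binding.

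The fibrillar collagens had a smaller median difference between the groups than the contractile genes (-0.65, and -0.48 without Acta2 and Tagln, which the rule used). With at least 10 UMIs of Acta2 and Tagln the contractile median was -0.33, and the collagens were not examined at that limit. The 3 collagens of the rule were at 10256 and 7749 CPM (Col1a1), 9130 and 7026 CPM (Col1a2) and 12901 and 10012 CPM (Col3a1). Of 6 fibrillar collagens, 0 passed 2-fold, against 3.35% of all genes, and the median log2 ratio was -0.37. Col5a1 was at 1514 and 980 CPM (-0.63, -0.75 to -0.51) and Col5a3 at 265 and 302 CPM (0.19, -0.06 to 0.44). Of 16 genes that fold, modify or cross-link collagen, 0 passed 2-fold and 14 lay below 0, against 2728 of all 5459 genes below 0. Among the 14 were the collagen chaperone gene Serpinh1 at 2027 and 1520 CPM (-0.42, -0.52 to -0.32) and the cross-linking enzyme gene Loxl2 at 360 and 222 CPM (-0.70, -0.96 to -0.44). With 3.35% of all genes past 2-fold, counts of 0 in 6 and 0 in 16 do not set these lists apart. The small proteoglycan gene Lum was at 870 and 414 CPM (-1.07, -1.26 to -0.89) and the elastic fibre gene Emilin1 at 247 and 126 CPM (-0.98, -1.32 to -0.65). Both were spread over the cells, with under 40% of their UMIs in 3 cells of either library.

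Among 12 other collagens (network, beaded and fibril-associated), Col4a1 was 2-fold higher (29.4 and 79.4 CPM) and Col4a5 2-fold lower (91.5 and 42.3 CPM). Of 13 matrix proteases and inhibitors, 1 was higher, the metalloprotease gene Adamts12 at 13.9 and 56.3 CPM. Of all genes, 1.65% were higher and 1.7% lower.

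The adhesive and matricellular glycoproteins split, with 5 of 17 at least 2-fold higher and 2 (Tnc and Ccn2) 2-fold lower, against 1.65% and 1.7% of all genes. Fn1, which encodes fibronectin, was at 4846 and 5394 CPM (0.15, 0.10 to 0.21) and Thbs1, a thrombospondin that activates TGF beta, at 921 and 555 CPM (-0.73, -0.90 to -0.57). The higher genes were Postn (329 and 980 CPM), Thbs4, Spp1, Ccn3 and Ccn5. Of 16 elastic fibre genes, 3 were higher (Eln, Mfap4 and Efemp1) and 1, Ltbp2, was lower, and of 10 proteoglycans, 2 (Ogn and Aspn) were higher and 1, Lum, was lower.

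**Figure D4:**
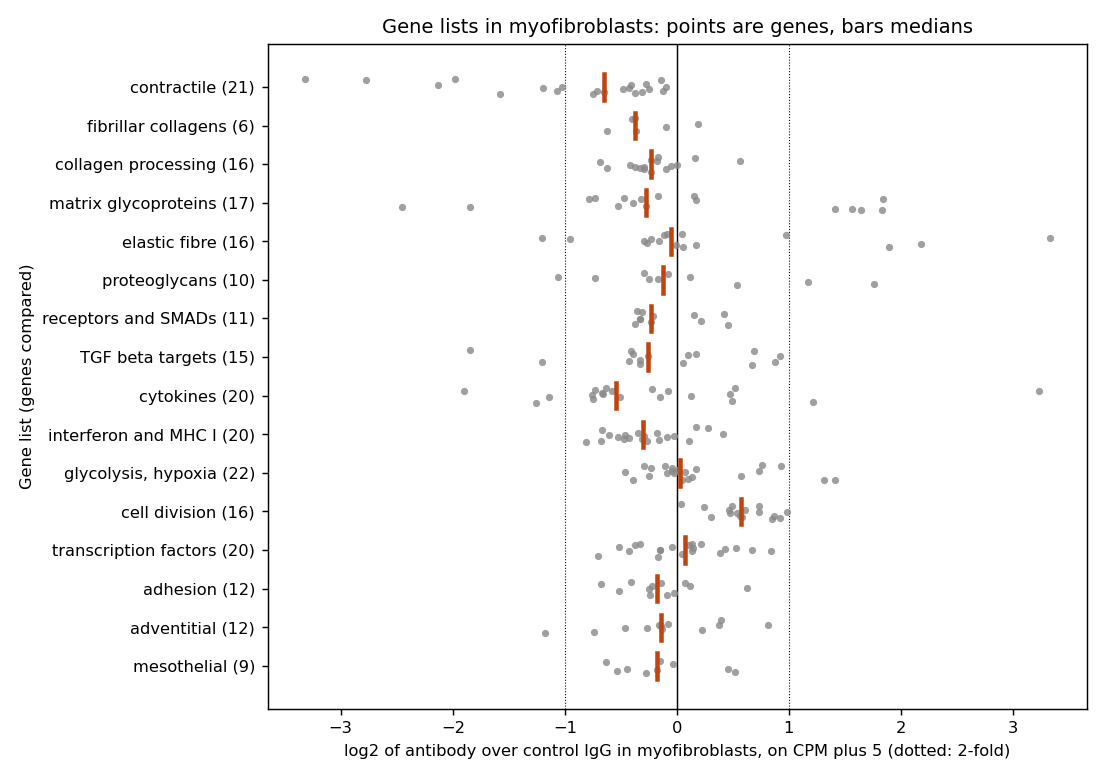
Log2 of antibody over control IgG in the myofibroblasts, on CPM plus 5, for the genes of 16 lists. Each point is a gene, the vertical bars are list medians and dotted lines mark 2-fold, and the median of the contractile list is -0.65 while that of the cell division list is 0.57.

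Several matrix genes that were higher with the antibody rested on few cells. Eln, the gene of elastin, was at 53.1 CPM from 65 UMIs in 13 of 47 cells with control IgG and at 580 CPM from 453 UMIs in 7 of 27 antibody cells, and 96.9% of the UMIs of the antibody library lay in 3 cells. Without the 3 cells of each library with most Eln UMIs, an alternative added after the values were seen, the levels were 25.1 and 19.1 CPM, and the log2 ratio on CPM plus 5 went from 3.33 to -0.32. In the other stromal cells Eln was at 291 and 1119 CPM. Postn went from 1.56 to 0.18 in the same way, with 88.8% of its UMIs in 3 antibody cells, Thbs4 from 1.83 to -0.80, Spp1 from 1.84 to -0.34, Ogn from 1.76 to 0.35 and Aspn from 1.17 to 0.25. Efemp1 stayed past 2-fold, from 2.18 to 1.67, and Mfap4 went from 1.89 to 0.95. Col4a1, Adamts12, Ccn3 and Ccn5 were not examined in this way. Of the 12 genes with the highest log2 ratios among those of at least 100 UMIs seen in 20% of the cells of 1 library, Eln, Gclm and Spp1 changed sign. Gclm encodes a subunit of the enzyme that makes the first step of glutathione. The predicted genes Gm47080 and Gm11290, the sterol enzyme gene Ch25h and the growth factor gene Fgf1 (31.0 and 115 CPM) kept their direction, with log2 ratios of 2.41, 2.12, 1.91 and 1.40 without those cells. Gm11290 was also higher with the antibody in free RNA, at 194 and 597 CPM. Spp1 was at 1262 and 1877 CPM in free RNA, against 45.7 and 177 CPM in the myofibroblasts. S100a4 was at 907 and 785 CPM in free RNA, against 104 and 368 CPM. Ctla2a, Abi3bp and S100a4 also kept their direction, at 1.40, 1.30 and 0.51. The 12 genes with the lowest log2 ratios by the same limits were H2-Aa, H2-Eb1, Cd74, H2-Ab1, Sfrp4, Tagln, Tnc, Myl9, AW112010, Acta2, Enpp2 and Ccn2, and all of them kept their direction. Without the 3 richest cells of each library, Acta2 was at -2.07, Tagln at -3.20, Myl9 at -2.17, Tnc at -3.34 and Ccn2 at -2.76. Leaving out 3 cells takes a larger part of 27 cells than of 47.

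**Figure D5:**
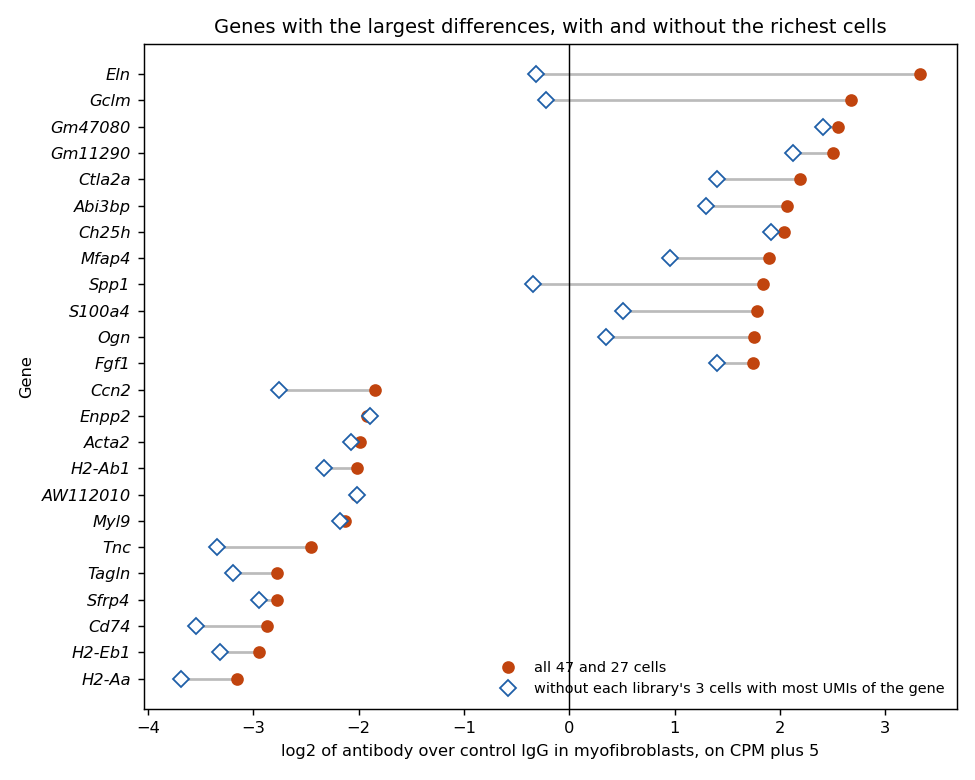
Log2 of antibody over control IgG on CPM plus 5 for the 12 genes with the highest and the 12 with the lowest values in the myofibroblasts, with all cells (circles) and without the 3 cells of each library with most UMIs of that gene (diamonds). Eln moves from 3.33 to -0.32, and Acta2 from -1.98 to -2.07.

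Of the 12 genes with the lowest ratios, 4 belong to class II antigen presentation. H2-Aa was at 233 CPM in 37 cells with control IgG and 21.8 CPM in 8 cells with the antibody (-3.42, -4.22 to -2.71), H2-Eb1 at 369 and 43.5 CPM (-3.08, -3.63 to -2.58), Cd74, the invariant chain, at 1284 and 172 CPM (-2.90, -3.17 to -2.65) and H2-Ab1 at 465 and 111 CPM (-2.06, -2.40 to -1.73). The same 4 genes were lower in the other stromal cells (Cd74 625 and 210 CPM) and in free RNA (Cd74 2487 and 1349 CPM). A Cd74 UMI was seen in 35.7% and 13.1% of T cells, and after reduction to 5000 UMIs in 31.5% and 14.5% of the 2687 and 1635 T cells of that depth, against 71.2% and 30.9% of the myofibroblasts. Of the 16 immune genes, all had a UMI in some member, yet Lyz2, C1qb and Tyrobp had 25, 15 and 16 UMIs over the 47 control IgG cells and 1, 1 and 3 over the 27 antibody cells. The part of free RNA or attached immune cells in the class II values was not tested.

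Class I genes differed less. H2-K1 was at 2620 and 1651 CPM (-0.67, -0.76 to -0.57) and B2m at 2478 and 1947 CPM (-0.35, -0.44 to -0.26). Of 20 interferon-stimulated genes, 0 passed 2-fold and 16 lay below 0, with a median of -0.31 in the myofibroblasts and -0.87 in the other stromal cells. The cytokine list held 2 genes of 20 that were 2-fold higher and 3 that were 2-fold lower, against 1.65% and 1.7% of all genes. The T cell chemoattractant gene Cxcl9 was at 381 and 156 CPM (-1.28, -1.58 to -0.99) in 30 and 9 cells, Cxcl5 at 42.5 and 7.68 CPM, and the prostaglandin E synthase gene Ptges at 53.9 and 21.8 CPM. The eosinophil chemoattractant gene Ccl11 was at 7.35 CPM in 3 cells and 111 CPM in 8 cells, and Cxcl14 at 25.3 and 65.3 CPM. The acute-phase gene Saa3 was at 2333 and 1379 CPM (-0.76, -0.86 to -0.66), and Il6 at 51.5 and 74.3 CPM (0.53, -0.01 to 1.07). Cd274, the gene of PD-L1, had 7 UMIs in 6 cells of either library, and 5.20% of antibody myofibroblasts and 2.61% of control IgG ones were expected to show a UMI at 5000 UMIs, so a difference was not detectable at this depth. In the other stromal cells it was at 24.0 CPM from 31 UMIs and 10.3 CPM from 18 UMIs (-1.22, -2.14 to -0.34).

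Compared with the other collagen-rich stromal cells, a contrast that the rule itself set, 338 of 5459 genes (6.19%) were at least 2-fold higher in the myofibroblasts and 321 (5.88%) at least 2-fold lower, on CPM plus 10 with both libraries weighted equally. In each library on its own, 213 (3.9%) and 240 (4.4%) held in the same direction. These values describe the cells and are not support for their name. Among genes with at least 50 UMIs in the members, with no limit on the number of cells, the highest folds after Tagln and Acta2 belonged to Gm47080, A2m, the tropomyosin gene Tpm2, Wnt4, Cdh3, 4930445E18Rik (86 UMIs, all in 1 antibody cell, and so not among the 5459 genes), the transcription factor gene Hand2 and Ncam1. Tpm2 was at 839 and 498 CPM in the myofibroblasts against 58.2 and 114 CPM. Several of these genes were also high in mesothelial-like cells. Ncam1 was at 703 and 286 CPM there, against 1154 and 807 CPM in the myofibroblasts. Wnt4, a secreted signal of peritoneal lining cells, was at 532 and 343 CPM in the myofibroblasts, 283 and 289 CPM in mesothelial-like cells and 52.8 and 58.6 CPM in the other stromal cells. Cdh3, which encodes P-cadherin, was at 126 and 76.8 CPM against 153 and 132 CPM in mesothelial-like cells, and Hand2 at 70.2 and 183 CPM against 135 and 132 CPM. Wt1 was at 176 and 159 CPM, with 270 and 289 CPM in mesothelial-like cells and 39.6 and 56.8 CPM in the other stromal cells. The keratin gene Krt19 set the classes apart, at 14.7 and 11.5 CPM in the myofibroblasts and 651 and 570 CPM in mesothelial-like cells.

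The genes that were lowest against the other stromal cells marked the adventitial fibroblasts found around vessels. Of 12 adventitial genes compared, 11 were 2-fold lower and 0 higher, against 5.88% and 6.19% of all genes. Between the groups, 1 of the 12, the stem cell antigen gene Ly6a, was 2-fold lower with the antibody (541 and 236 CPM), against 1.7% of all genes. Clec3b had 33 and 49 UMIs in 3 and 5 myofibroblasts and was at 1540 and 1163 CPM in the other cells, Gsn at 459 and 434 against 8058 and 8146 CPM, and Tnxb, a tenascin of connective tissue, at 70.2 and 56.4 against 1101 and 1238 CPM. Pi16, a marker of adventitial progenitors, was seen in 3 of 47 and 4 of 27 myofibroblasts. Of 16 elastic fibre genes, 9 were 2-fold lower and 1 was higher. Glycolysis and hypoxia genes were high in the myofibroblasts, with 16 of 22 at least 2-fold above the other stromal cells (6.19% of all genes), such as Gapdh at 2665 and 2922 against 735 and 799 CPM and Eno1 at 640 and 662 against 138 and 137 CPM. Between the groups they were close, with a median log2 ratio of 0.03, and 2 of the 22 were 2-fold higher with the antibody, against 1.65% of all genes. These were Ero1l, an oxidase of the endoplasmic reticulum, at 99.7 and 273 CPM (1.45, 1.12 to 1.79), and the hypoxia-induced carbonic anhydrase gene Car9 at 46.6 and 123 CPM (1.40, 0.91 to 1.90). The members were also the more deeply sequenced cells, and the part of depth in these contrasts was not tested.

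Cell division genes were likewise higher in the myofibroblasts than in the other stromal cells for 14 of 16 genes, against 6.19% of all genes. With the antibody, 0 of the 16 passed 2-fold and 16 lay above 0, with a median of 0.57, and the median in the other stromal cells was 0.95. Mki67, a protein gene of cycling cells, was seen in 8 of 47 and 9 of 27 cells, at 48.2 and 83.2 CPM (0.79, 0.26 to 1.32). Of its UMIs, 62.7% and 66.2% lay in 3 cells of the respective library. Stmn1, a microtubule regulator, was at 192 and 385 CPM (1.01, 0.75 to 1.26). Transcription factors of mesenchyme showed 0 of 20 genes past 2-fold between the groups. The cofactors of serum response factor and of TEAD were within this range, with Mrtfa at 95.6 and 85.8 CPM, Yap1 at 71.9 and 42.3 CPM (-0.77, -1.39 to -0.17) and Wwtr1 at 158 and 141 CPM. Adhesion genes showed 0 of 12 past 2-fold, immediate-early and heat shock genes 0 of 22 and checkpoint genes 0 of 4. Of 18 growth factor and receptor genes, Igf1r, the receptor of insulin-like growth factors, was higher at 58.8 and 129 CPM (1.14, 0.69 to 1.59) in 32 and 26 cells. Of 7 Wnt genes, the Wnt inhibitor gene Sfrp4 was lower at 284 and 37.1 CPM, seen in 10 and 5 cells. Of all genes, 1.65% were higher and 1.7% lower.

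The members were not uniform. Leiden clustering of the 74 cells at resolution 0.5 gave 3 clusters, which carry numbers and no names, while resolution 0.3 gave 1 cluster and 0.8 gave 5. Cluster 1 (30 cells, 15 of the 47 control IgG members and 15 of the 27 antibody members) was led by the division genes Ube2c, Pclaf, Birc5 and Cenpa. Inside it, Mki67 was at 109 and 124 CPM and Top2a at 160 and 162 CPM. The part of this cluster's share in the higher division genes with the antibody was not tested. Cluster 2 (24 cells, 15 and 9) was led by the matrix genes Thbs4, Angptl1, Aspn and Abi3bp, and had 128 CPM of Inhba over both libraries, against 47.3 and 15.3 CPM in clusters 1 and 3. Cluster 3 (20 cells, 17 and 3) was led by Enpp2, Hp, Ltc4s and Saa3, with H2-Eb1, Cd74 and H2-Aa among its first 10 genes. Acta2 was lower with the antibody inside each cluster, where cluster 1 had 2001 and 438 CPM, cluster 2 had 2479 and 579 CPM, and cluster 3 had 1201 and 480 CPM. Levels of Inhba were 68.4 and 28.6 CPM (cluster 1), 172 and 38.3 CPM (cluster 2) and 18.2 and 0 CPM (cluster 3).

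Across the 47 control IgG cells, the genes whose level per cell was most like that of Acta2, by Spearman rank correlation of UMIs per 10000 over 6851 genes, were Csrp1 (0.74), Tpm2 (0.71), the cytoplasmic actin gene Actg1 (0.69), Tagln (0.69), Myl6 (0.69) and the actinin gene Actn1 (0.67), followed by Itga5, Hs6st2, Ostf1 and Creb3 (0.64 to 0.61). In the 27 antibody cells the first 6 genes had 0.48, 0.46, 0.36, 0.39, 0.45 and 0.38, and the other 4 had 0.10, 0.02, 0.16 and -0.04. The lowest values belonged to Ccdc80, a secreted matrix protein gene (-0.63, and -0.51 in the antibody cells), and Tmem176b (-0.58 and -0.17). Inhba had 0.39 with control IgG and 0.10 with the antibody, and Dcn, the decorin gene of the rule, -0.48 and -0.19. The cells of a library share its depth and free RNA, Acta2 itself had a correlation of 0.42 with the UMIs of the cell with control IgG and -0.30 with the antibody, and Acta2 and Tagln had set the membership.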

How the data were processed

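The authors deposited unnormalized UMI counts of 32285 genes for every barcode, 1 library per group. The submitters' processing notes give Cell Ranger 7.0.1 and mm10, and the file headers Cell Ranger 4. The number of mice and the days of treatment were taken from the labels. The study's text gives others for a single-cell experiment of this kind, and another 10x chemistry. It gives the labelled numbers of mice for a separate experiment with control IgG and this antibody alone. Its single-cell methods name these same treatments. Which experiment these libraries came from was not settled. A cell needed 1000 to 8500 detected genes, a total of 1000 to 100000 UMIs and no more than 10% of them mitochondrial, giving medians of 5719 UMIs (control IgG) and 4660 UMIs (antibody). The members and gene lists were chosen with earlier results of these data known. Named were the rule's genes and the label markers, members of the lists with most UMIs or the largest ratios, the 15 highest and 10 lowest against the other stromal cells, the 12 highest and 12 lowest between groups (at least 100 UMIs, seen in 20% of the cells of 1 library), the leading genes of each cluster and the genes most like Acta2. Counts were summed per class and library, without a test between groups, and log2 ratios of counts of genes used CPM plus 5. Ratios printed with intervals carry no pseudocount. Sub-clusters used 1000 variable genes, 10 components and 15 neighbours (Python 3.11.15, scanpy 1.11.5, leidenalg 0.10.2). Scrublet called 0 doublets, which was not taken to mean that none were present, and doublets were not removed. Its median score was 0.081 in the members of either library, against 0.032 (control IgG) and 0.040 (antibody) in all cells. The alternative on doublets left out the top 5% of its scores, which took 1 control IgG member and 0 antibody members. The scripts were tested on simulated data. Alternatives changed the limits of the rule, depth, doublets, free RNA, filters and pseudocounts.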

Additional observations from a re-analysis of the deposited data

Results flagged for a closer look

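Ncam1 and Inhba were lower with the antibody in the myofibroblasts and higher in the other collagen-rich stromal cells, which is why both are given again. The log2 ratio of Ncam1 was -0.52 in the myofibroblasts and 0.38 in the other cells, from 1413 and 630 UMIs against 179 and 315 UMIs. Ncam1 was also lower with the antibody in mesothelial-like cells (-1.30, -1.51 to -1.10) and cancer-like cells (-0.43, -0.49 to -0.37), and higher in T cells (0.42, 0.20 to 0.65). The log2 ratio of Inhba was -1.58 and 1.44, from 103 and 22 UMIs against 6 and 22 UMIs. In the other cells of the antibody library, 77.3% of the Inhba UMIs lay in 3 cells, with 66.9 CPM in the 13 cells of 1 or 2 Acta2 and Tagln UMIs and 3.99 CPM in the 167 cells of none. The difference between the classes was not tested, as each group is 1 library.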

How the results depend on the processing

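The direction held in every alternative run for the share among collagen-rich stromal cells (10 alternatives, -1.91 to -0.69), Inhba (14, -2.17 to -1.02) and the contractile median (14, -0.76 to -0.33). Acta2, which chose the members, ranged from -2.60 to -1.32 over 15 alternatives. The share among all cells was below 0 in 9 of 10 (-1.13 to 0.03). With at least 10 UMIs of Acta2 and Tagln, the log2 ratio was -1.13 for the share of all cells, -1.91 for the share of stromal cells, -1.49 for Acta2 and -0.33 for the contractile median. With limits per 10000 UMIs, Acta2 was -1.71 and the contractile median -0.47, and with the mean over cells -1.54 and -0.49. Acta2 was -2.60 over all collagen-rich stromal cells, -2.19 in cluster 1 and -1.32 in cluster 3, where Inhba gave no ratio. The contractile median was -0.76 without the members left out for Rgs5, Kcnj8, Abcc9, Higd1b and Myh11. It was -0.51 without members with skeletal muscle markers or the 3 richest in Acta2, -0.45 without the 3 deepest and -0.52 with a pseudocount of 20. Genes 2-fold higher and lower were 16 and 24 with at least 200 UMIs, 363 and 317 with no filter, and 54 and 49 with a pseudocount of 20. Without the 3 members of each library richest in the gene, 4 of 44 named genes changed sign, Eln to -0.32, Gclm to -0.22, Spp1 to -0.34 and Thbs4 to -0.80. The cause of these changes was not tested. The alternatives on all stromal cells, single clusters, 9000 UMIs, the deepest members and those richest in each named gene were chosen after seeing the data. So was the mean over cells for the counts of genes, which gave 100 higher and 102 lower. No paired analysis was possible because there is 1 library per group, and for the same reason no replicate could be left out. With 47 and 27 cells, genes of few UMIs were not resolved.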
